A study of Mus musculus with 8 samples.

Results

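The genes of resident peritoneal macrophages were examined in CD11b+ cells from mouse ascites that formed after intraperitoneal injection of ID8, an ovarian cancer line. They were Gata6, Timd4, Cd5l, Adgre1, Tgfb2, Icam2, Selp, Prg4, Alox15 and Lyve1, chosen by name, and all 10 were measured among the 22180 genes that the arrays cover with a feature of a single gene symbol. Each was read by 1 array feature. The treated mice were 4 female C57BL/6 animals given a neutralizing antibody against leukemia inhibitory factor (anti-LIF), a cytokine, for 25 days, from day 12 after inoculation in the series text and from day 14 in a legend. The controls were 4 female C57BL/6 animals with the same tumors, labelled untreated, while the methods describe a control IgG. The methods place the injection of ID8 cells at 8 weeks of age. Magnetic beads against CD11b gave the cells, and RNA was hybridized to 1 array per mouse, so the preparation held all kinds of CD11b+ cells and any cell carried along. Values are log2 intensities after RMA normalization, and a log2 difference is anti-LIF minus control. The p-values measure the spread between these mice.

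Peritoneal macrophages that settle before or after birth and renew in place are large cells, rich in the surface protein of Adgre1, whose identity depends on the transcription factor GATA6, which is induced by retinoic acid from the mesothelium and omentum. During inflammation these cells leave the fluid or die, and monocyte-derived cells with less of this protein and more MHC class II take their place. Both kinds carry the product of Adgre1, so that gene alone does not separate them.

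After anti-LIF treatment the resident macrophage genes moved in different directions. Cd5l, which encodes a secreted scavenger protein of resident macrophages, rose 2.1-fold. Lyve1, the gene of a hyaluronan receptor, was 2.81-fold lower, Tgfb2, a cytokine gene, 1.69-fold lower and Adgre1 1.65-fold lower. Gata6, Timd4, Icam2, Selp, Prg4 and Alox15 did not pass the test. With limma and Benjamini-Hochberg adjustment over all genes at a threshold of 0.1, 4 of the 10 genes were called, where 16.8% of all genes were called in either direction. Of the 10, 1 was called higher, beside 5.79% of all genes, and 3 were called lower, beside 11.0%. These shares varied with level. Lower calls took in 21.7% of genes with a mean log2 intensity of 6 to 7, as for Tgfb2 and Lyve1, and 29.5% at 7 to 8, as for Adgre1. Higher calls took in 8.07% at 4 to 5, as for Cd5l. The groups did not overlap for 2 of the 10, Cd5l and Tgfb2, and for 18.5% of all genes (29.6% of those above the median level). The median log2 difference was 0.10 over the 10 genes and 0.03 over all genes.

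**Figure D1:**
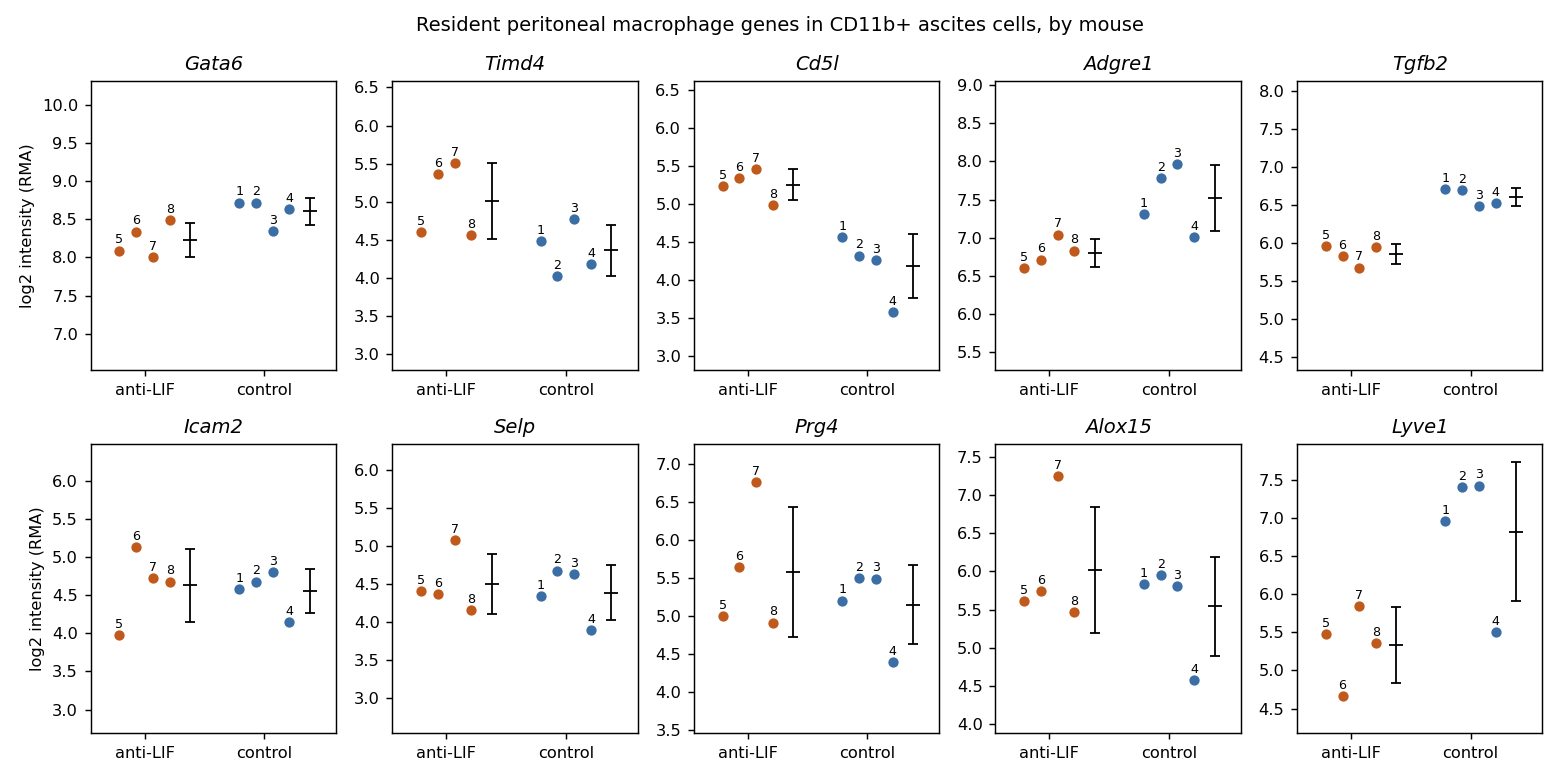
Log2 intensity (RMA, vertical axis) of the 10 genes in each mouse, with anti-LIF mice on the left and control mice on the right, points numbered by replicate, and bars giving mean ± SD (n = 4). Cd5l and Tgfb2 are the only panels in which the 4 anti-LIF points lie all on one side of the 4 control points, and replicate 7 is the highest point for Selp, Prg4 and Alox15.

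Of all genes, 1284 were higher and 2448 lower, so 34.4% of calls were higher, against 18.7% (749 higher and 3253 lower) when arrays were centred on their medians and 47.7% (1326 and 1454) when the values were quantile-normalized again. The change also varied with the level of a gene, from a median log2 difference of 0.11 among the 3804 genes with a mean log2 intensity of 4 to 5 to -0.25 among the 862 genes at 8 to 9. Arrays of one group correlated at 0.975 to 0.984 and arrays of different groups at 0.955 to 0.976 across genes. Itgam, the CD11b gene used for the isolation, was at 8.20, 8.72, 8.56 and 8.49 in anti-LIF replicates 5 to 8, against 8.45, 8.62, 9.19 and 8.41 in control replicates 1 to 4. In pooled cells such as these, fewer macrophages of a kind and less RNA in each of them cannot be told apart.

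Gata6, the gene of the factor that defines the resident peritoneal lineage, was at 8.09, 8.34, 8.01 and 8.49 in anti-LIF replicates 5 to 8, against 8.72, 8.72, 8.35 and 8.64 in control replicates 1 to 4. The groups overlapped, because anti-LIF replicate 8 lay above control replicate 3. Its log2 difference was -0.38 (standard error 0.15, 95% interval -0.70 to -0.05, limma adjusted p = 0.129), which missed the threshold and does not show that Gata6 stayed level. The median gene of the same range of intensity stood at -0.25. With the values quantile-normalized again the log2 difference of Gata6 was -0.14 (adjusted p = 0.637), and with arrays centred on their medians it was -0.47 (adjusted p = 0.0600).

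The genes of the retinoic acid pathway that induces GATA6 were then counted. Of 14 measured genes of retinoic acid synthesis, retinoid receptors and related factors, 1 rose, 3 fell and 10 missed the threshold, with a median log2 difference of -0.07. Of all genes 5.79% were called higher and 11.0% lower. At a mean log2 intensity of 6 to 7, where the list median lay (6.01), these shares were 5.36% and 21.7%. The risers numbered 2 without anti-LIF replicate 6, among genes above the median level and with quantile normalization again. Rdh10, the retinol dehydrogenase of the first step of synthesis, was higher by 0.67 on the log2 scale (limma adjusted p = 0.0255). Klf4, the gene of a zinc finger factor of monocytes and macrophages, stood at a log2 difference of -1.81 (adjusted p = 0.00210), Cyp26b1, a retinoic acid-degrading enzyme gene, at one of -0.93 (adjusted p = 0.0298), and Rxra, a partner receptor gene, at one of -0.52 (adjusted p = 0.0858). Aldh1a1 and Aldh1a2, retinaldehyde dehydrogenase genes, stood at log2 differences of 0.06 and 0.23 and did not pass.

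Tgfb2, which encodes a TGF-beta ligand made by resident peritoneal macrophages, was at 5.96, 5.83, 5.68 and 5.95 in anti-LIF replicates 5 to 8, against 6.71, 6.70, 6.49 and 6.53 in control replicates 1 to 4. Every anti-LIF mouse lay below every control mouse (exact two-sided permutation test, p = 0.0286 being the lowest value possible with 4 mice in each group). The log2 difference was -0.75 (standard error 0.12, 95% interval -1.02 to -0.48, limma adjusted p = 0.00491), a 1.69-fold lower level. Tgfb2 had the smallest SDs of the 10 genes in both groups, 0.13 in anti-LIF mice and 0.11 in control mice.

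Among 17 other measured genes of TGF-beta ligands, latency proteins, receptors and feedback, 2 fell, none rose and 15 missed the threshold, with a median log2 difference of -0.26. The 2 were Tgfb1, another ligand gene, with a log2 difference of -0.76 (limma adjusted p = 0.0439), and Tgfbr2, a receptor gene, with -0.59 (adjusted p = 0.0126). By comparison, 11.0% of all genes were called lower, and 21.7% at a mean log2 intensity of 6 to 7, where the list median lay (6.55). Ltbp1, which encodes a latent TGF-beta binding protein, stood at a log2 difference of 0.46 and did not pass (adjusted p = 0.172). The number that fell was 4 without control replicate 3, 5 among genes above the median level or with arrays centred, and 1 without anti-LIF replicate 8 or with quantile normalization again, and 1 gene was called higher without control replicate 1. Tgfb2 is also expressed by epithelial and mesothelial cells. Of 12 tumor and mesothelial markers 3 rose, 2 fell and 7 did not pass, and their mean log2 intensity ran from 8.20 to 8.46 in anti-LIF mice and from 7.90 to 8.40 in control mice. Their median level (8.64) lay at 8 to 9, where 4.87% of genes were called higher and 36.2% lower. Of these markers 1 fell without control replicate 1, 2 or 3 or anti-LIF replicate 6, 7 or 8 and at a threshold of 0.05, and 0 fell with quantile normalization again. Those that fell were the keratin genes Krt18 (log2 difference -0.69, limma adjusted p = 0.0112) and Krt19 (-0.40, adjusted p = 0.0790). Muc16, Upk1b and Lrrn4 rose, with log2 differences of 1.88, 0.78 and 0.74. The part of tumor and mesothelial cells in the levels of Tgfb2, Gata6 and Prg4 was not tested.

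Icam2, Selp, Prg4 and Alox15 are the other genes grouped with Gata6 as its programme. Alox15 encodes a lipoxygenase that oxidizes arachidonic and linoleic acid. It was at 5.61, 5.74, 7.25 and 5.47 in anti-LIF replicates 5 to 8, against 5.83, 5.95, 5.81 and 4.57 in control replicates 1 to 4. Both ends of this range were single mice, replicate 7 of the anti-LIF group and replicate 4 of the controls. The other 3 anti-LIF mice all lay below the other 3 controls, opposite to the sign of the difference of the means. Between groups the log2 means differed by 0.48 (95% interval -0.39 to 1.34, limma adjusted p = 0.477), and by 0.07 without anti-LIF replicate 7 and 0.15 without control replicate 4.

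Prg4, which encodes the lubricating glycoprotein lubricin, was at 5.00, 5.64, 6.76 and 4.91 in anti-LIF replicates 5 to 8, against 5.20, 5.50, 5.49 and 4.39 in control replicates 1 to 4. Its highest value was again in replicate 7 and its lowest in replicate 4, and the groups overlapped. The mean difference was 0.43 on the log2 scale (95% interval -0.39 to 1.26, limma adjusted p = 0.501), and was 0.04 without anti-LIF replicate 7 and 0.18 without control replicate 4.

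Selp, the gene of P-selectin, which platelets and endothelial cells also carry, was at 4.41, 4.37, 5.08 and 4.16 in anti-LIF replicates 5 to 8, against 4.35, 4.68, 4.63 and 3.90 in control replicates 1 to 4. Replicates 7 and 4 were its highest and lowest mice too, with the others mixed. Its log2 difference of 0.12 (95% interval -0.37 to 0.60, limma adjusted p = 0.776) turned to -0.08 without anti-LIF replicate 7 and to -0.05 without control replicate 4. Icam2, the gene of an adhesion molecule of large peritoneal macrophages, endothelium and platelets, was at 3.98, 5.13, 4.73 and 4.68 in anti-LIF replicates 5 to 8, against 4.58, 4.68, 4.81 and 4.15 in control replicates 1 to 4. Its groups overlapped over nearly their whole range, with a log2 difference of 0.08 (95% interval -0.42 to 0.58, adjusted p = 0.862) that was -0.09 without anti-LIF replicate 6, -0.06 without control replicate 4 and -0.01 with arrays centred on their medians. Both genes, like Timd4 and Cd5l, had means near the median of all genes in control mice (4.57), and no background level could be set for such values.

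**Figure D2:**
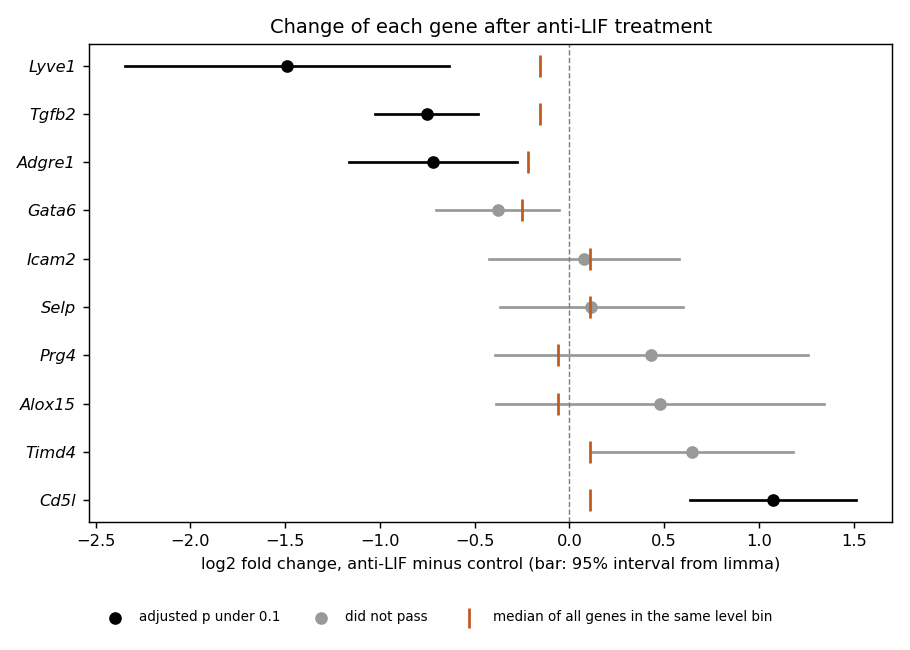
Log2 difference (anti-LIF minus control, horizontal axis) of each gene with its 95% interval from limma, in black for an adjusted p under 0.1 and in grey otherwise, beside the median of all genes with a similar mean intensity (orange tick). Lyve1, Tgfb2 and Adgre1 lie below 0 and Cd5l above it, and the intervals of Icam2, Selp, Prg4 and Alox15 include 0.

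Selp, Prg4 and Alox15 followed each other from mouse to mouse. Over the 8 arrays Prg4 and Alox15 correlated with Pearson's r = 0.96 (exact permutation p = 9.2e-04, 0.0138 adjusted over the 45 pairs of the 10 genes) and Spearman's rho = 0.83 (exact permutation p = 0.0154, adjusted p = 0.115). Selp correlated with Alox15 at r = 0.95 (exact permutation p = 5.0e-04, adjusted p = 0.0138) and rho = 0.83 (exact permutation p = 0.0154, adjusted p = 0.115). Selp and Prg4 correlated at r = 0.93 (exact permutation p = 0.00216, adjusted p = 0.0243) and rho = 0.81 (exact permutation p = 0.0218, adjusted p = 0.140). None of the 45 rank correlations passed 0.1 after adjustment. Replicates 7 and 4 lay farthest from the median, and without both r was lower, at 0.75 for Prg4 and Alox15, 0.82 for Selp and Alox15 and 0.65 for Selp and Prg4 (n = 6). Taken as deviations from the group means, r was 0.96, 0.96 and 0.94. The pattern was partly shared, with r of deviations of 0.80 for Selp and Lyve1, 0.78 for Selp and Adgre1, and 0.79 for Alox15 and Cd5l. Control replicate 4 was also the lowest control for Cd5l, Adgre1, Icam2 and Lyve1. Replicate 7 was also the highest anti-LIF mouse for Timd4, Cd5l, Adgre1 and Lyve1. The mean of other large cavity macrophage genes was highest in replicate 7 (6.71) and lowest in replicate 4 (6.09) too.

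Among 10220 named genes with a mean above the median, Prg4 was the one most correlated with Alox15, and Fn1, the fibronectin gene and another gene of large peritoneal macrophages, came next (r = 0.93 over 8 arrays). Fn1 was likewise highest in anti-LIF replicate 7 (10.11) and lowest in control replicate 4 (8.85). Alox15 is also a gene of eosinophils. None of 5 measured eosinophil markers passed the test, and their mean log2 intensity ran from 3.48 to 4.11 in anti-LIF mice, highest in replicate 7, and from 3.35 to 3.51 in control mice, lowest in replicate 4. Deviations of Alox15 from its group means correlated with those of this mean at 0.69, and with those of Fn1 at 0.92. Of these markers 2 were called higher without anti-LIF replicate 6, and 1 without anti-LIF replicate 8 or control replicate 1 or 4, with array weights and with eBayes trend and robust settings. None of 8 platelet markers passed, with means of 4.04 to 4.14 in anti-LIF mice and 3.93 to 4.11 in control mice. Of 14 endothelial and lymphatic markers 2 rose, 2 fell and 10 did not pass, with means of 4.53 to 4.62 in anti-LIF mice and 4.56 to 4.65 in control mice. At a mean log2 intensity of 3 to 4, where their median lay (3.85), 4.97% of genes were called higher and 0.85% lower. The endothelial risers numbered 1 without any one array other than control replicate 1, with arrays centred, with quantile normalization again and at a threshold of 0.05. The endothelial markers that fell numbered 0 without control replicate 2 or 3 or anti-LIF replicate 6 and at a threshold of 0.05, and 1 without control replicate 1 or 4 or anti-LIF replicate 5 or 8 and among genes above the median level. The part of these cells in the levels of Alox15, Selp, Icam2 and Lyve1 was not tested.

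Gata6 did not follow this group of genes. The deviations of Gata6 from its group means correlated at -0.46 with those of Alox15, -0.49 with Prg4 and -0.58 with Selp, and at 0.66 with those of Tgfb2. They correlated at -0.57 with the mean of the general macrophage genes and at 0.07 with that of the tumor and mesothelial markers. With Wt1, a single one of those markers, r was 0.78, and with Gata4, another GATA factor gene, it was -0.06. Which cells gave the Gata6 signal was not tested. The gene most correlated with Gata6 was Sesn1, a stress-response gene, at r = 0.98 over 8 arrays, and the one most correlated with Tgfb2 was Ech1, a peroxisomal and mitochondrial dienoyl-CoA isomerase gene. The groups do not overlap for Tgfb2, and r with Ech1 is given for deviations from the group means only (0.96). Deviations of Tgfb2 correlated at -0.49 with the mean of the general macrophage genes and at 0.37 with that of the tumor and mesothelial markers.

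**Figure D3:**
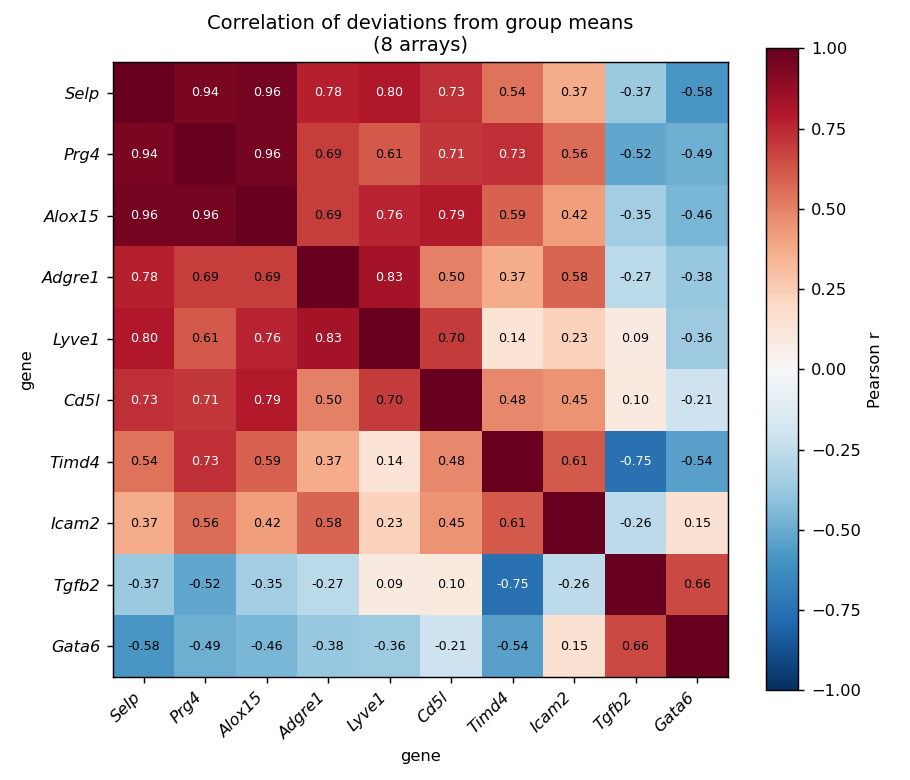
Pearson's r between the 10 genes, computed over the 8 arrays on deviations from each gene's group means, with red for positive and blue for negative values. Selp, Prg4 and Alox15 form a block at 0.94 to 0.96, and Lyve1 reaches 0.80 with Selp and 0.76 with Alox15. Gata6 has r between -0.58 and 0.15 with every gene other than Tgfb2 (0.66).

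Adgre1, the gene of EMR1, an adhesion receptor long used to mark mouse macrophages, was at 6.60, 6.71, 7.04 and 6.83 in anti-LIF replicates 5 to 8, against 7.31, 7.78, 7.97 and 7.01 in control replicates 1 to 4. The groups met at anti-LIF replicate 7 and control replicate 4. The log2 difference was -0.72 (standard error 0.20, 95% interval -1.16 to -0.28, limma adjusted p = 0.0437, and p = 0.0571 in the exact two-sided permutation test). The call was lost without control replicate 2 (adjusted p = 0.116), control replicate 3 (0.108) or anti-LIF replicate 5 (0.101), and with quantile normalization again (log2 difference -0.53, adjusted p = 0.120). Of 12 measured general macrophage genes, 6 fell, none rose and 6 did not pass, where 36.2% of all genes with a mean log2 intensity of 8 to 9 were called lower. Without control replicate 3, and with quantile normalization again, 2 of the 12 were called higher. Their mean log2 intensity ran from 8.13 to 8.26 in anti-LIF mice and from 8.50 to 9.34 in control mice. Those that fell include Cd14, a co-receptor for lipopolysaccharide, with a log2 difference of -1.58 (adjusted p = 0.00843), and the endosomal glycoprotein gene Cd68, with -1.41 (adjusted p = 0.00281). Adgre4, the gene of another adhesion receptor of the same family, rose with a log2 difference of 1.23 (adjusted p = 0.00190).

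The other genes were then set against Adgre1 on the same array. Timd4, Cd5l, Icam2, Selp, Prg4 and Alox15 were higher relative to Adgre1 in all 4 anti-LIF mice than in any control mouse. The difference from Adgre1 ran from -2.27 to -1.35 in anti-LIF mice and from -3.76 to -2.83 in control mice for Timd4, and from -1.37 to 0.21 in anti-LIF mice and from -2.44 to -1.48 in control mice for Alox15. However, 36.5% of all genes separated in this way, against 6 of 9 here. The fit to these differences called 7 of 9 genes (6 higher, and Lyve1 lower) and 73.3% of all genes, and the median gene was higher by 0.75 relative to Adgre1. That fit gave every gene the same standard error, 0.30, since all differences hold the same Adgre1 values, and its p-values are therefore not used. With an ordinary variance for each gene, the same 6 were called higher (adjusted p from 0.0627 to 0.0693, where 58.5% of all genes were called) and Lyve1 was not (adjusted p = 0.111). Tgfb2 and Gata6 differed from Adgre1 by a change of -0.03 (standard error 0.27) and 0.34 (standard error 0.32) with the ordinary variance, and their groups overlapped.

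Timd4 encodes TIM-4, the phosphatidylserine receptor by which resident macrophages bind dying cells. It was at 4.60, 5.36, 5.51 and 4.56 in anti-LIF replicates 5 to 8, against 4.48, 4.02, 4.77 and 4.18 in control replicates 1 to 4. Replicates 6 and 7 were above every control mouse and replicates 5 and 8 lay within the control range. The log2 difference was 0.65 (standard error 0.24, 95% interval 0.12 to 1.18, limma adjusted p = 0.112), which missed the threshold. It passed in 6 of 16 alternatives, including those without control replicate 3 and without anti-LIF replicate 5 or 8. The adjusted p ran from 0.0654 among genes above the median level to 0.259 without anti-LIF replicate 7.

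Of 18 other genes of phosphatidylserine recognition, 1 rose, 4 fell and 13 did not pass, with a median log2 difference of -0.30. Lower calls took in 11.0% of all genes and 21.7% at a mean log2 intensity of 6 to 7, where the list median lay (6.60). Higher calls took in 5.79% and 5.36%. The number that fell was 2 without control replicate 2 or 3 or anti-LIF replicate 5 or 6 and at a threshold of 0.05, and 7 among genes above the median level. The single riser, Axl, was lost without any one array other than control replicate 1, with arrays centred and at a threshold of 0.05. The bridging and complement genes C1qc and C1qb stood at log2 differences of -1.10 (limma adjusted p = 0.00337) and -0.64 (adjusted p = 0.0801). Mertk, a receptor kinase for apoptotic cells, stood at a log2 difference of -0.90 (adjusted p = 0.0265), and Axl, of the same receptor family, at one of 0.34 (adjusted p = 0.0936). Havcr1 and Havcr2, which encode TIM-1 and TIM-3 of the family of Timd4, stood at log2 differences of 0.20 and -0.43 and did not pass.

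Cd5l, whose product AIM circulates bound to IgM, was at 5.23, 5.34, 5.46 and 4.98 in anti-LIF replicates 5 to 8, against 4.56, 4.32, 4.26 and 3.58 in control replicates 1 to 4. Every anti-LIF mouse lay above every control mouse (exact two-sided permutation test, p = 0.0286). The log2 difference was 1.07 (standard error 0.20, 95% interval 0.63 to 1.51, limma adjusted p = 0.00841), at percentile 99.5 of all genes. Cd5l is a target of the LXR nuclear receptors. Of 8 measured LXR and sterol genes 1 rose, 5 fell and 2 did not pass, beside 5.79% of all genes called higher and 11.0% lower. Only 3 fell without control replicate 2 or 3, without any one anti-LIF replicate, with quantile normalization again and at a threshold of 0.05, and among genes above the median level 0 rose. The riser was Nr1h3, the gene of LXRα itself, with a log2 difference of 0.76 (adjusted p = 0.0309), and the cholesterol exporter gene Abca1, another target, stood at a log2 difference of -1.03 (adjusted p = 0.00658).

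The gene most correlated with Cd5l among those above the median was Ighm, the heavy chain gene of IgM (r = 0.98 for deviations from the group means), followed by Jchain, which links IgM units (0.97 for deviations). Ighm was at 6.88, 7.02, 6.99 and 6.31 in anti-LIF replicates 5 to 8, against 5.28, 5.00, 4.85 and 3.87 in control replicates 1 to 4. Ighm was higher by 2.05 on the log2 scale (limma adjusted p = 0.00234) and Jchain by 3.20 (adjusted p = 6.6e-04). Both were picked for their likeness to Cd5l, which itself rose. Anti-LIF replicate 8 and control replicate 4 were the lowest of their groups for all of Cd5l, Ighm and Jchain. Because the groups separate and the pair was picked as the closest of 10220, no test of this correlation is given. None of 7 measured B cell markers passed the test, with means of 3.61 to 3.88 in anti-LIF mice and 3.41 to 3.69 in control mice. Ighm and Jchain were not among these markers. The part of antibody-producing cells in the Cd5l values was not tested.

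Promoter sequence was looked at for Cd5l and Tgfb2, the 2 genes whose groups did not overlap and which moved in opposite directions. The 250 bases before the start are shown 5′ to 3′ on the gene's strand, from RefSeq on the build GRCm38.p6, at chr3:87357631-87357880 on the plus strand for Cd5l and chr1:186705990-186706239 on the minus strand for Tgfb2. Capitals mark matches to the GATA letters AGATAA or AGATAG, and to TGATAA or TGATAG, on either strand.
Cd5l: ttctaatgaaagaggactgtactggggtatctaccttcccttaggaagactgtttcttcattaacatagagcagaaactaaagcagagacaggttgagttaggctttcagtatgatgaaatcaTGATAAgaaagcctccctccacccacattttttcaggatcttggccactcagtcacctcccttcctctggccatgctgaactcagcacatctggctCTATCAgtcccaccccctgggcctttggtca
Tgfb2: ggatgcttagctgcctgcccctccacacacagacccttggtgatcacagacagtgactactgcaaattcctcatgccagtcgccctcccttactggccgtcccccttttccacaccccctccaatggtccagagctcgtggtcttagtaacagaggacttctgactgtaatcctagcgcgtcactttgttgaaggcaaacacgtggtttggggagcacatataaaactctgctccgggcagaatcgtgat
The Cd5l window holds 2 matches, whose first bases lie 127 and 31 bases before the start, and the Tgfb2 window holds none. At least 1 match is found in 26.5% of the 32851 promoters in the table and at least 2 in 6.4%. Timd4 and Selp are in the table and have no match, and Gata6, Adgre1, Icam2, Prg4, Alox15 and Lyve1 were not matched to an entry. A match is a run of letters and was not tested as a binding site.

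Lyve1 encodes a hyaluronan receptor of lymphatic endothelium and of tissue macrophages that lie along vessels and in the omentum. It was at 5.48, 4.66, 5.85 and 5.36 in anti-LIF replicates 5 to 8, against 6.96, 7.41, 7.43 and 5.50 in control replicates 1 to 4. Control replicate 4 lay among the anti-LIF mice, between replicates 5 and 7, and the other 3 controls were above all of them. The log2 difference was -1.49 (standard error 0.39, 95% interval -2.34 to -0.63, limma adjusted p = 0.0339, and p = 0.0571 in the exact two-sided permutation test), a 2.81-fold lower level. Without control replicate 4 it was -1.93 and without anti-LIF replicate 6 it was -1.26. Lyve1 kept its call in all 16 alternatives, with adjusted p from 0.00492 to 0.0947.

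Lyve1 and Adgre1 varied together, with r = 0.93 over the 8 arrays (exact permutation p = 9.2e-04, 0.0138 adjusted over 45 pairs) and rho = 0.93 (exact permutation p = 0.00223). Both genes were called lower after anti-LIF treatment and the permutations ignored group, so these values also hold the difference between groups. Without control replicates 2 and 3, the arrays farthest from the median of Adgre1, r was 0.83 (n = 6), and for deviations from the group means it was 0.83. The second most correlated gene of Lyve1 was Stab1, a scavenger receptor gene of the same tissue macrophages (r = 0.959 over 8 arrays). Of 14 measured genes of LYVE1+ tissue macrophages other than Lyve1, 9 fell, none rose and 5 did not pass. Of all genes 11.0% were called lower, and 29.5% of those with a mean log2 intensity of 7 to 8, where the median of this list lay (7.42). The median log2 difference was -0.83, against 0.03 over all genes and -0.22 in that range. Those that fell include Pf4, F13a1, Ccl24 and Mrc1, which encode a platelet-type chemokine, a coagulation factor subunit, an eosinophil chemokine and the mannose receptor. Their log2 differences were -4.14, -2.76, -2.14 and -2.03 (adjusted p = 1.0e-04, 1.2e-04, 0.00843 and 0.00548 from limma). Folr2, the folate receptor beta gene of such macrophages, stood at a log2 difference of -0.67 and did not pass (adjusted p = 0.257). This list was chosen with earlier results of these data known, and the paper had named Pf4, Mrc1 and Cd163 as downregulated. Its count of falls is therefore not independent support.

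**Figure D4:**
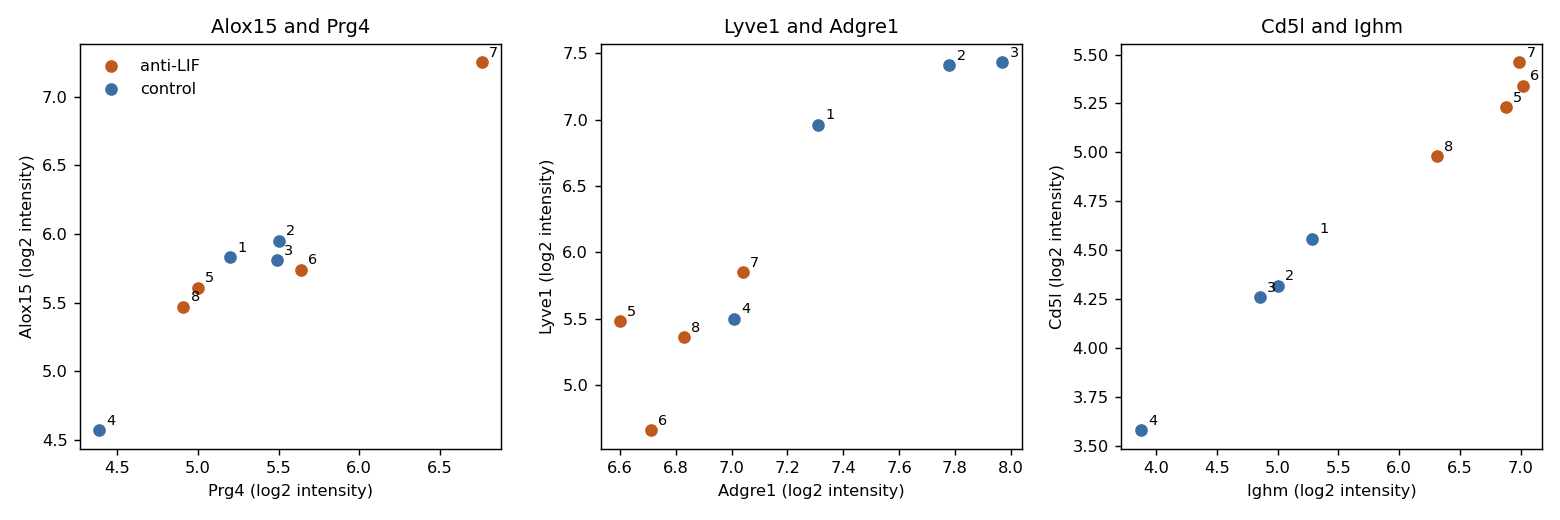
Log2 intensity (RMA) of Alox15 against Prg4, Lyve1 against Adgre1, and Cd5l against Ighm in each mouse, with anti-LIF mice in orange, control mice in blue and replicate numbers beside the points. The ends of the ranges of Alox15 and Prg4 are single mice (7 highest, 4 lowest), control replicate 4 lies among the anti-LIF mice for Lyve1 and Adgre1, and the groups separate for Cd5l and Ighm.

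Other genes of large cavity macrophages were counted in the same way. Of 20 measured, 1 rose, 2 fell and 17 did not pass, with a median log2 difference of 0.05. Beside them, 5.79% of all genes were called higher and 11.0% lower. At a mean log2 intensity of 5 to 6, where the list median lay (5.87), these shares were 7.45% and 13.8%. The risers numbered 3 among genes above the median level or without anti-LIF replicate 5, and 2 without control replicate 1 and with quantile normalization again. Of the genes that fell, 1 was called without control replicate 3 or anti-LIF replicate 5, 6 or 7 and at a threshold of 0.05. The riser was Hdc, the histidine decarboxylase gene, with a log2 difference of 0.90 (limma adjusted p = 0.0108). Thbs1, the gene of the matrix protein thrombospondin 1, had one of -1.89 (adjusted p = 0.00947), and Bhlhe40, a transcription factor gene that supports the renewal of large peritoneal macrophages, one of -0.45 (adjusted p = 0.0772). Itga6 and Aspa, an integrin gene and the aspartoacylase gene that depends on GATA6, stood at log2 differences of 0.01 and 0.02.

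Of 12 measured genes of small, monocyte-derived cavity macrophages, 2 rose, 2 fell and 8 did not pass. Higher calls took in 5.79% of all genes and 5.36% at a mean log2 intensity of 6 to 7, where the list median lay (6.24). Lower calls took in 11.0% and 21.7%. Without control replicate 3 the number that fell was 0, and it was 1 without control replicate 2 or anti-LIF replicate 5, 6 or 7, at a threshold of 0.05 and among genes above the median level. The MHC class II transactivator gene Ciita and the class II chain gene H2-Ab1 stood at log2 differences of 1.76 (limma adjusted p = 0.00337) and 0.92 (adjusted p = 0.00775). The class II chain genes H2-Eb1 and H2-Aa stood at 0.50 (adjusted p = 0.121) and 0.16 (adjusted p = 0.614) and did not pass. The C-type lectin genes Mgl2 and Clec10a stood at log2 differences of -0.84 (adjusted p = 0.0613) and -0.77 (adjusted p = 0.0470). Both genes share much of their sequence, so signal may be split between them. Of 13 measured genes of selectin, ICAM and hyaluronan partners, 5 rose, 1 fell (2 without anti-LIF replicate 6) and 7 did not pass. Those called include Itgal, the integrin chain gene of LFA-1, with a log2 difference of 1.42 (adjusted p = 0.00190), Itgb2, its partner chain, with 0.71 (adjusted p = 0.0369), Icam4 with 0.70 (adjusted p = 0.0180), and Cd44, another hyaluronan receptor gene, with -0.85 (adjusted p = 0.0195). At a mean log2 intensity of 5 to 6, where the partner median lay (5.47), 7.45% of genes were called higher and 13.8% lower. Of 10 other lipoxygenase pathway genes, Alox12 rose with a log2 difference of 0.53 (adjusted p = 0.0772) and 9 did not pass. The median of this list was 3.80, and at 3 to 4 the shares were 4.97% and 0.85%. None of the 10 was called higher without control replicate 2, 3 or 4 or anti-LIF replicate 5 or 7, among genes above the median level, with arrays centred, with quantile normalization again or at a threshold of 0.05. Of the 10, 1 was called lower without anti-LIF replicate 8, with arrays centred, among genes above the median level, with quantile normalization again and with both other feature summaries.

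**Figure D5:**
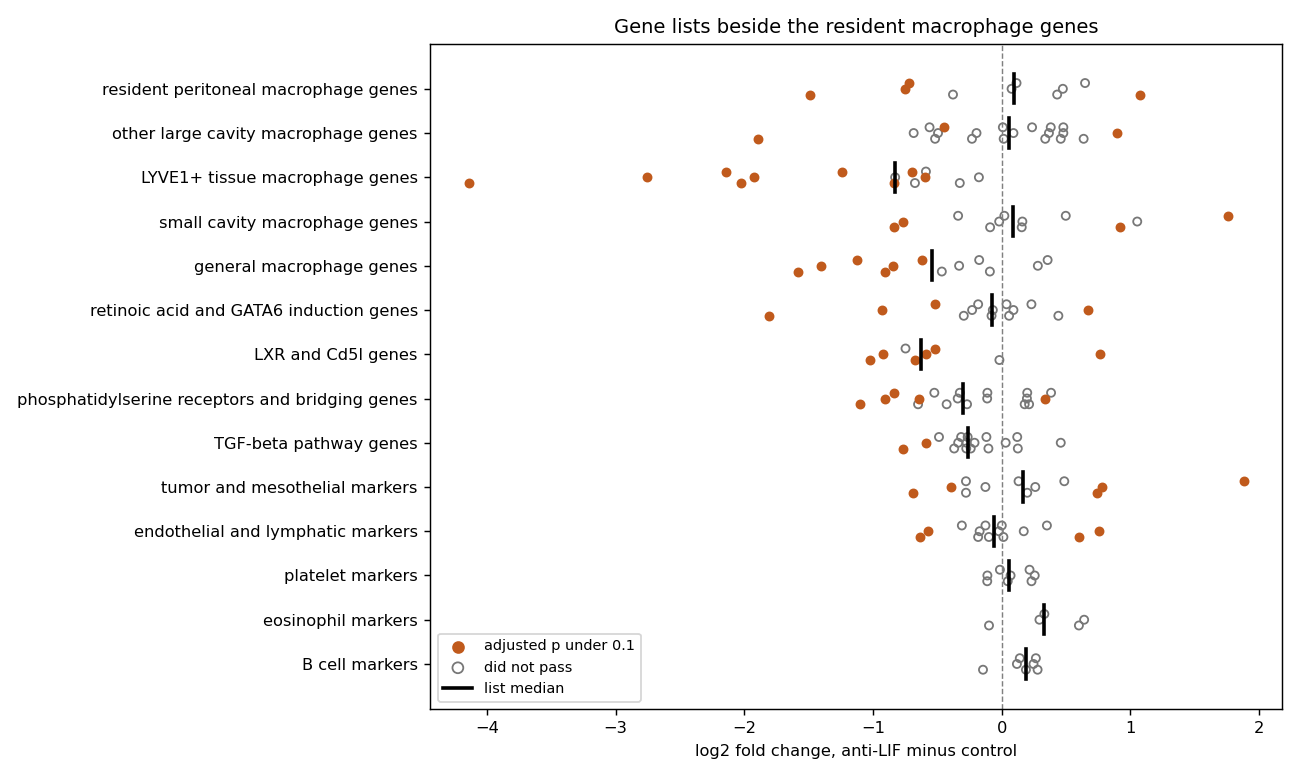
Log2 difference (anti-LIF minus control, horizontal axis) of each measured gene in 14 lists, filled in orange for an adjusted p under 0.1 and open otherwise, with the list median as a black bar. The LYVE1+ tissue macrophage genes have a median of -0.83, while the resident and the other large cavity macrophage genes have medians of 0.10 and 0.05.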

How the data were processed

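RNA from CD11b+ ascites cells of 8 mice was assayed on Affymetrix Mouse Gene 2.1 ST arrays, 1 per mouse. The authors had RMA run by Progenika and deposited the resulting log2 values. R 3.1.2 is named in their processing notes. The sources used here do not give the library files. RMA sets the arrays to the same distribution before probes are summarized, so a change is relative to the other genes on an array. The summarized gene values still differed in distribution, since quantile normalization again took lower calls from 2448 to 1454.

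Of 41345 features, 23521 carried a single gene symbol and were averaged to 22180 genes. The 1820 features of several symbols and the 16004 without one were dropped, and low values were kept. The groups were fitted with lmFit and eBayes of limma 3.58.1 under R 4.3.3, with Benjamini-Hochberg adjustment across all genes. Exact permutation tests ran over the 70 assignments of the arrays for differences and over the 40320 pairings for correlations (scipy 1.17.1). The pairings took no account of group. Fits were tested on simulated data. The methods name paired samples, but no source used here names the pairs. The number of arrays limits the precision (median standard error 0.156).

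The members and the 20 other gene lists were chosen with earlier results of these data known, so counts over them are not independent support. Named genes were the 10 members, up to 4 called genes of largest change in each list, and the 3 genes most correlated with each member, with some others chosen after their values were seen. Results of lists whose values are not given above were as follows. Of 8 measured monocyte markers 1 rose and 3 fell, of 9 neutrophil markers 2 fell, of 7 dendritic cell markers 1 rose, of 9 T and NK cell markers 2 rose, and of 5 measured adhesion receptors of leukocytes 2 rose and 1 fell. The shares over all genes were 5.79% higher and 11.0% lower. Alternatives were other feature summaries, a filter on level, other scalings, other variance settings, array weights, a threshold of 0.05 and each array left out in turn.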

Additional observations from a re-analysis of the deposited data

Results flagged for a closer look

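Among the 20 sets of 4 values (10 genes in 2 groups), 2 held a mouse far from the other 3, where chance gives about 1 in 20. For Alox15, anti-LIF replicate 7 was at 7.25, and its gap to the next mouse was 0.846 of the group's range. Control replicate 4 was at 4.57 for the same gene, with a gap of 0.898 of the range. Both gaps exceed the 95% critical value of Dixon for 4 samples.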

How the results depend on the processing

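No paired analysis was possible because the replicate numbers of the groups (1 to 4 and 5 to 8) are not shared. Cd5l, Tgfb2 and Lyve1 kept direction and call under all 16 alternatives, Adgre1 under 12. The members called higher numbered 2 instead of 1 among genes above the median level, with eBayes trend and robust settings and with array weights (Cd5l and Timd4), and 1 to 2 with one array left out (2 without control replicate 3 or without anti-LIF replicate 5 or 8). Icam2 and Selp have no value among genes above the median level. The genes called higher numbered 749 with arrays centred, 674 at a threshold of 0.05, and 802 (without control replicate 3) to 1357 with one array left out, with 844 without control replicate 2 and 840 without anti-LIF replicate 7. The genes called lower numbered 1454 with quantile normalization again. Relative to Adgre1, the count of lower members was 0 with an ordinary variance, which was chosen after seeing the data, and 0 to 1 with one array left out (0 without anti-LIF replicate 6). Signs that turned belonged to values near 0. They were Icam2 at -0.01 (arrays centred), -0.06 (without control replicate 4) and -0.09 (without anti-LIF replicate 6, in a range up to 0.30), Selp at -0.05 (without control replicate 4) and -0.08 (without anti-LIF replicate 7, in a range up to 0.23), and Tgfb2 relative to Adgre1 at 0.07 (without control replicate 1) and 0.11 (without control replicate 4 or anti-LIF replicate 7), in a range down to -0.22. Gata6 passed the threshold under 6 of the 16, with log2 fold changes from -0.47 to -0.14 over all. Among the lists of other blood cells, the monocyte markers called higher numbered 2 without control replicate 4, the T and NK cell markers called higher 4 without anti-LIF replicate 7 and 1 among genes above the median level, and the neutrophil markers 1 higher without control replicate 1 or anti-LIF replicate 6 and 1 lower among genes above the median level. The causes were not tested.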
